A study of Mus musculus with 11 samples.

Results

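The Nr4a, Egr and Ier immediate early genes described here are 10 of the 53947 gene rows in the deposited table, found by symbol: Nr4a1, Nr4a2 and Nr4a3, Egr1, Egr2, Egr3 and Egr4, and Ier2, Ier3 and Ier5. All 10 were present, and 8 passed the filter on low counts and were tested, while Egr2 and Egr3 did not pass it. The RNA came from alphaTC1-6, a mouse line of immortalised, glucagon-secreting pancreatic alpha cells. There were 3 libraries from scramble control cells, 4 from cells with Mettl3 knocked down (Mettl3 KD) and 4 from cells with Mettl14 knocked down (Mettl14 KD). All cells were grown in the line's normal medium with no further stimulus named, reverse transfected, and harvested 72 h after knockdown. A confluency of 70% was given for every library. The kind of knockdown reagent is not stated in the labels. The 3 groups are samples of a single cell line, and the labels separate them only by the transcript targeted.

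Immediate early genes are switched on within minutes of a stimulus, from factors already present in the cell, and most of their messages are short-lived. Calcium, cyclic AMP and the MAP kinase cascade reach them through CREB and through SRF with its ternary complex factors. The Nr4a receptors are orphan nuclear receptors that bind DNA without a known hormone, the Egr proteins are zinc finger factors that bind GC-rich sites, and the Ier proteins are small and lack a DNA-binding domain, with Ier3 known as a regulator of cell survival. Mettl3, the catalytic subunit, and Mettl14, its partner, make up the enzyme core that places N6-methyladenosine (m6A) on messenger RNA, a mark known to affect how long a message lasts.

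The promoter windows of 4 members are shown, chosen with the fold changes and the motif matches known. The 3 Nr4a genes each hold several matches to 1 short motif. All 3 rose in Mettl14 KD, but Nr4a2 was not called in Mettl3 KD. Ier3, which fell in both knockdowns, is given beside them. Whether the motif has a part in these changes was not tested. Each window runs from 250 bases before the transcription start to 50 after it, from RefSeq on GRCm38.p6, used as a reference only, since no source used here names the build behind the counts. The windows are chr15:101266596-101266895 on the plus strand for Nr4a1, chr2:57123954-57124253 on the minus strand for Nr4a2, chr4:48045055-48045354 on the plus strand for Nr4a3 and chr17:35821463-35821762 on the plus strand for Ier3. In the Nr4a windows capitals mark TGACG on either strand (CGTCA as printed when on the opposite strand), the core that CREB family factors recognise. In the Ier3 window capitals mark ACGTG, a core of the hypoxia response element, also searched on both strands.
Nr4a1: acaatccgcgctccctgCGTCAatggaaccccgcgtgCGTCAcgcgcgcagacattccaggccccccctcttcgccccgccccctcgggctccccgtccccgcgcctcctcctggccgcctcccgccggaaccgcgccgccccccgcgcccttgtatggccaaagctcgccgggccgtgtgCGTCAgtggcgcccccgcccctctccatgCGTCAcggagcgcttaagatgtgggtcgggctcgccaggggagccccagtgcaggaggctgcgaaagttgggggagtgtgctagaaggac
Nr4a2: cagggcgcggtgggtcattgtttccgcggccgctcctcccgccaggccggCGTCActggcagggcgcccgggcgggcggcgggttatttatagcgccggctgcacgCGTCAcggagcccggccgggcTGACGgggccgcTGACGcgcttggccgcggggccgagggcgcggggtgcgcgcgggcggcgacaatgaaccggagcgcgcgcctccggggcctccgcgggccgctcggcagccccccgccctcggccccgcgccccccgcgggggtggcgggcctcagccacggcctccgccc
Nr4a3: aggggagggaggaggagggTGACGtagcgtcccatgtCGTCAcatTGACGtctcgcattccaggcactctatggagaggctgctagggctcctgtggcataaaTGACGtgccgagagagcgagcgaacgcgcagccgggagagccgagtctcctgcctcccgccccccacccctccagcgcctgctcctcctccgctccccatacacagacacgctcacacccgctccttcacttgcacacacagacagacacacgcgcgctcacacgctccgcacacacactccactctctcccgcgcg
Ier3: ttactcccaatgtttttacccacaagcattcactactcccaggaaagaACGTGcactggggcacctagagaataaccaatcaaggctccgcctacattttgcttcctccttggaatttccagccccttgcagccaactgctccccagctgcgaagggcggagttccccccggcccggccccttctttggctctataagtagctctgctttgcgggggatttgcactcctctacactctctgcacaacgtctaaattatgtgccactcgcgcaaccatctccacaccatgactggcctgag

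Each Nr4a window held 4 matches to TGACG, where 20.8% of 32851 RefSeq windows of the same length held at least 1 and 0.231% held at least 4. The Nr4a1 matches lay on the strand opposite the gene, from 233 to 36 bases before the start, and those of Nr4a2 and Nr4a3 lay on both strands. Egr4 held 2 matches, and Ier3 and Ier5 held 0 in these windows. RefSeq gave 5 windows for Egr2, some of them overlapping; 3 of these held 2 matches to TGACG, and 4 held 1 CArG box, the site that SRF recognises, found in 1.63% of all windows. Windows of the other members in the table, Nr4a1, Nr4a2, Nr4a3, Egr4, Ier3 and Ier5, held 0 CArG boxes. ACGTG, found at least once in 6447 of the 32851 windows, had 1 match in Ier3, at positions -202 to -198 from the start, 1 in Nr4a3, where it overlaps a TGACG match, and 2 overlapping matches in the first Egr2 window. TATAAA, found in 13.6% of windows, had 1 match, in Nr4a2. Promoter windows were described for 7 of the 10 members, and a match is a description of letters, not evidence of binding. Windows of Egr1, Egr3 and Ier2 are not reported here, so whether they hold these motifs is left unsaid.

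**Figure D1:**
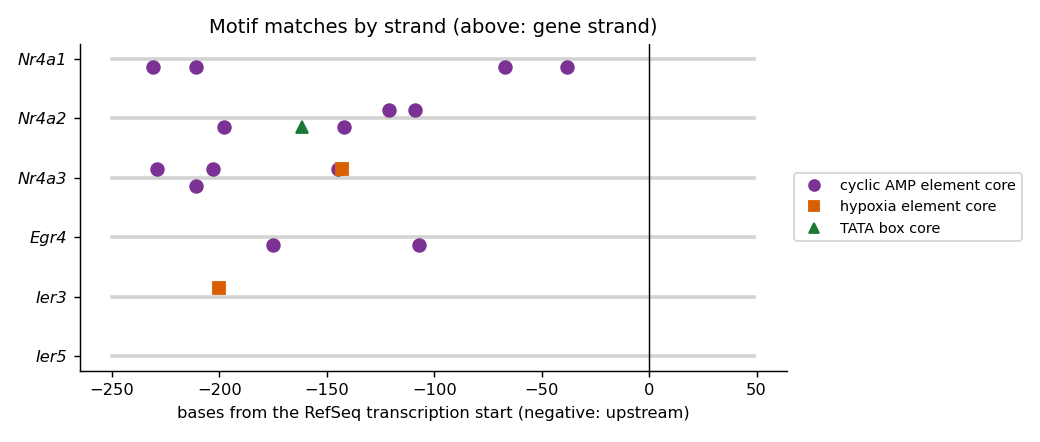
Positions of short motif matches in the promoter windows of 6 members, as bases from the RefSeq start (x axis), with markers above each line on the gene's strand and below it on the opposite strand. Nr4a1, Nr4a2 and Nr4a3 carry 4 matches each to the cyclic AMP response element core, Egr4 carries 2, and Ier3 and Ier5 carry 0.

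Library totals lay between 19576632 and 22406527 counts. Mettl3 was at 35.8% of the scramble level in Mettl3 KD and Mettl14 at 58.1% in Mettl14 KD, with no overlap between libraries in either case, and Mettl14 rose by 0.22 ± 0.06 on the log2 scale in Mettl3 KD (edgeR adjusted p = 0.00494). Of 9 alpha cell markers 8 had counts in all 3 groups and Gc was at 0, while delta, PP and epsilon cell markers summed to at most 0.359 CPM (counts scaled to a common library size, as in edgeR's cpm) in a library. Beta cell markers summed to 55.8 to 75.3 CPM in the scramble libraries, 50.7 to 54.7 with Mettl3 KD and 49.9 to 55.9 with Mettl14 KD, with Ins1 at 0 in scramble and Mettl3 KD and Ucn3 at 0 in Mettl14 KD. Nearly all of that sum was Nkx6-1, with means of 60.8 CPM in scramble, 51.5 in Mettl3 KD and 52.2 in Mettl14 KD. Nkx6-1 was not called in either knockdown, and every other beta cell marker averaged at most 0.871 CPM in a group. Acinar and ductal markers, with Prss2 and Amy2b at 0, summed to 28.0 to 33.0 CPM in the scramble libraries, above the 23.2 to 26.6 of Mettl3 KD and the 23.2 to 27.3 of Mettl14 KD. Among the 4 of them tested, Krt7, a ductal keratin named after its values were seen, fell to 45.2% and 57.6% of the scramble level (edgeR adjusted p = 2.16e-06 and 0.000173). Spp1 was at -0.29 and -0.19 on the log2 scale and was called only in Mettl3 KD. Sox9, at 0.17 and 0.25, and Cela1, at 0.14 and 0.07, went the other way and were not called. Scramble replicate 2 stood apart: 11 lung and blood markers summed to 125.5 CPM there and to 2.56 to 6.47 CPM in the other 10 libraries, and 8 mesenchymal, endothelial and immune markers summed to 7.82 to 58.9 CPM in scramble, 10.4 to 13.3 in Mettl3 KD and 7.0 to 9.68 in Mettl14 KD. The part of these transcripts in the results was not tested, and member results are also given without that library. Nothing in the labels states that replicates came from separate cultures, and the p-values then measure only the spread among these libraries, which may be technical.

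In Mettl3 KD, 2 of the 8 tested members rose (Nr4a1 and Nr4a3) and 3 fell (Ier3, Egr1 and Ier2); in Mettl14 KD, 3 rose (Nr4a1, Nr4a2 and Nr4a3) and 2 fell (Ier3 and Ier2). Over all 14133 genes tested, 15.5% were called higher and 15.8% lower in Mettl3 KD, and 10.1% higher and 10.8% lower in Mettl14 KD, by edgeR's quasi-likelihood test at an adjusted p of 0.05. The knockdown and scramble libraries did not overlap for 6 of the 8 in Mettl3 KD, against 35.5% of all genes, and for 5 of the 8 in Mettl14 KD, against 28.9%. The median log2 fold change of the 8 was -0.09 in Mettl3 KD and -0.04 in Mettl14 KD, beside -0.00391 and 0.000324 over all genes tested. Both contrasts use the same scramble libraries. Without scramble replicate 2 the counts were 2 higher and 3 lower in Mettl3 KD, and 3 higher and 1 lower in Mettl14 KD, where Ier2 was no longer called. In bulk RNA a change within each cell and a change in the share of cells that express a gene cannot be told apart.

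**Figure D2:**
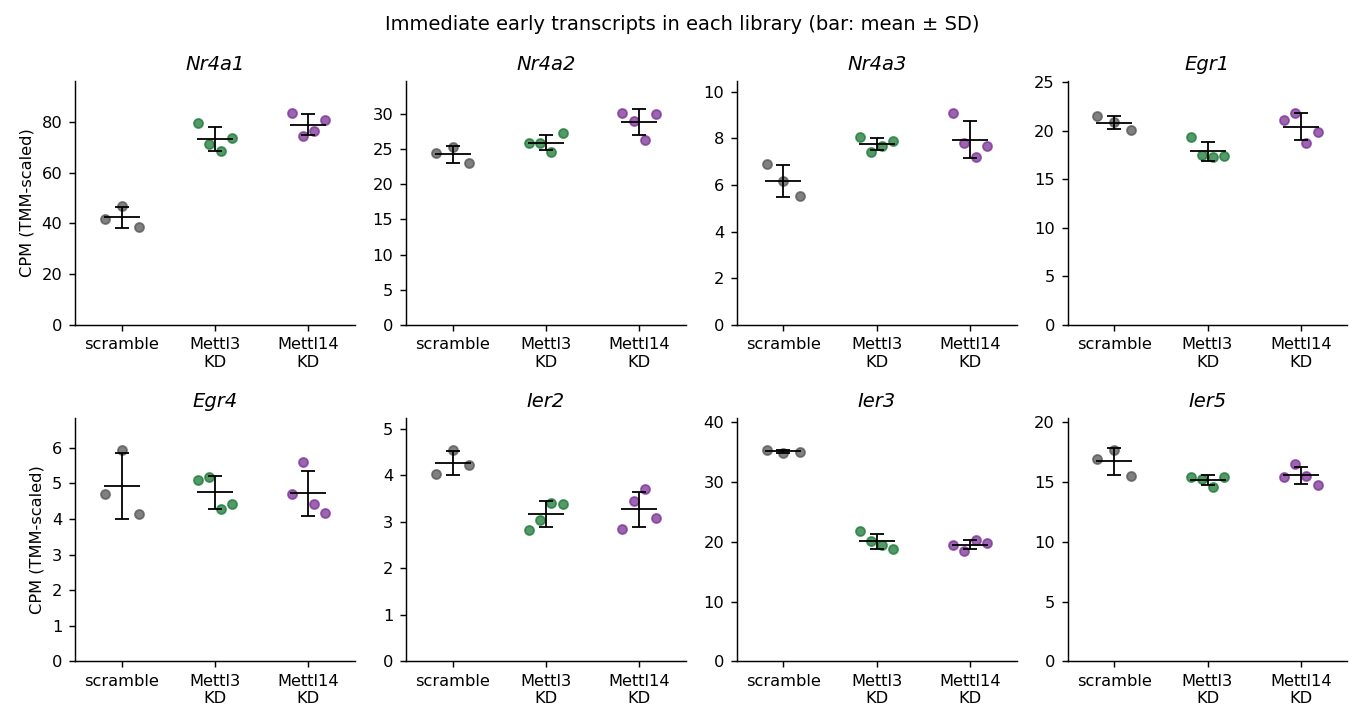
CPM after scaling by trimmed means (TMM; y axes, from 0) of the 8 tested members in each of the 11 libraries, with 1 point per library and bars for the mean ± SD of each group. Nr4a1 is above all scramble libraries, and Ier3 and Ier2 are below them, in every knockdown library, whereas Egr4 overlaps between all 3 groups.

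Nr4a1, the receptor also called Nur77, had the largest increase of the 8 tested. Its level stood at 41.7, 47.0 and 38.7 CPM in the scramble libraries, 79.7, 71.2, 68.7 and 73.8 CPM in Mettl3 KD and 83.7, 74.6, 76.6 and 81.0 CPM in Mettl14 KD. All 8 knockdown libraries lay above all 3 scramble libraries, and the knockdown groups overlapped each other. It rose 1.73-fold in Mettl3 KD (log2 fold change 0.79 ± 0.07, SE; edgeR adjusted p = 4.65e-07) and 1.86-fold in Mettl14 KD (0.90 ± 0.07; edgeR adjusted p = 1.79e-07). The scramble library with the highest value was replicate 2, and without it the log2 fold changes were 0.87 and 0.97.

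Nr4a2, or Nurr1, known for its role in dopamine neurons, changed less. It was at 24.5, 25.3 and 23.0 CPM with scramble, at 25.9, 25.9, 24.6 and 27.3 CPM under Mettl3 knockdown and at 30.2, 29.0, 26.3 and 30.1 CPM under Mettl14 knockdown. Only the Mettl14 KD libraries were all above the scramble libraries. It rose by 0.25 ± 0.06 on the log2 scale in Mettl14 KD (edgeR adjusted p = 0.00352) and did not pass in Mettl3 KD, at 0.10 ± 0.06 (edgeR adjusted p = 0.216). Set directly against each other, the knockdowns differed by -0.16 ± 0.05 (Mettl3 KD minus Mettl14 KD), which missed the threshold (edgeR adjusted p = 0.0751), although it passed with limma-voom, in the fit of those 2 groups alone and in the fits without scramble replicate 2 or Mettl14 KD replicate 3.

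Nr4a3, or Nor1, was the scarcest of the receptors. It was at 6.89, 6.15 and 5.52 CPM with scramble, at 8.06, 7.42, 7.68 and 7.88 CPM under Mettl3 knockdown and at 9.10, 7.82, 7.21 and 7.68 CPM under Mettl14 knockdown. No knockdown library reached down to a scramble library. It rose by 0.33 ± 0.10 in Mettl3 KD (edgeR adjusted p = 0.0141) and by 0.36 ± 0.10 in Mettl14 KD (edgeR adjusted p = 0.0112), and both calls ended without scramble replicate 3, its lowest library, at 0.26 (edgeR adjusted p = 0.0777) and 0.29 (edgeR adjusted p = 0.0607).

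Among the Egr factors, Egr1 fell slightly with Mettl3 knockdown. Egr1 was at 21.5, 20.9 and 20.1 CPM with scramble, at 19.3, 17.5, 17.3 and 17.4 CPM under Mettl3 knockdown and at 21.1, 21.8, 18.7 and 19.8 CPM under Mettl14 knockdown. The Mettl3 KD libraries were all below scramble, with replicate 1 nearest to it, and the Mettl14 KD libraries overlapped scramble. It fell by 0.22 ± 0.06 in Mettl3 KD (edgeR adjusted p = 0.0107) and was at -0.03 ± 0.06 in Mettl14 KD (edgeR adjusted p = 0.771). The direct test of the knockdowns gave -0.19 ± 0.06, Mettl3 KD minus Mettl14 KD, just inside the threshold (edgeR adjusted p = 0.0490), with overlapping libraries. That call ended in 11 of 19 alternative fits, among them the fits without scramble replicate 3, without Mettl3 KD replicate 2, 3 or 4, and without Mettl14 KD replicate 1, 2 or 4, with values of -0.23 to -0.16 over all 19.

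Egr4 did not pass in any comparison, with 4.71, 5.95 and 4.13 CPM with scramble, at 5.10, 5.19, 4.29 and 4.41 CPM under Mettl3 knockdown and at 4.71, 5.61, 4.41 and 4.16 CPM under Mettl14 knockdown. The ranges overlap throughout, and the highest value is in scramble replicate 2. Its log2 fold changes were -0.05 ± 0.13 in Mettl3 KD and -0.06 ± 0.13 in Mettl14 KD, and without scramble replicate 2 they were 0.10 and 0.09. Egr2, known from myelination and hindbrain patterning, had 6, 8 and 8 counts in scramble, 8, 10, 5 and 7 in Mettl3 KD and 8, 12, 7 and 9 in Mettl14 KD. Egr3 had 4, 7 and 4 counts in scramble, 11, 5, 5 and 7 in Mettl3 KD and 7, 5, 4 and 8 in Mettl14 KD. Both ranges overlap between all 3 groups, and neither gene was tested.

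Ier3 showed the largest decrease of the 8 tested. It was at 35.4, 34.8 and 35.0 CPM with scramble, at 21.7, 20.2, 19.5 and 18.8 CPM under Mettl3 knockdown and at 19.5, 18.5, 20.4 and 19.8 CPM under Mettl14 knockdown. Every knockdown library was well below every scramble library, and the knockdown groups overlapped. It fell by 0.81 ± 0.05 in Mettl3 KD (edgeR adjusted p = 5.68e-10) and by 0.85 ± 0.05 in Mettl14 KD (edgeR adjusted p = 5.12e-10), 1.75-fold and 1.80-fold lower. By unadjusted p it ranked 28th and 13th of the 14133 genes.

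Ier2 fell from a low level. It was at 4.03, 4.55 and 4.22 CPM with scramble, at 2.82, 3.04, 3.39 and 3.39 CPM under Mettl3 knockdown and at 2.85, 3.45, 3.69 and 3.07 CPM under Mettl14 knockdown. All knockdown libraries were below scramble, on 63 to 94 counts a library. The decrease was 0.43 ± 0.12 in Mettl3 KD (edgeR adjusted p = 0.0116), called in all 19 alternative fits, and 0.38 ± 0.12 in Mettl14 KD (edgeR adjusted p = 0.0326), where the call ended in 7 of 19, including those without scramble replicate 2 or 3 and without Mettl14 KD replicate 1 or 4, at -0.39 to -0.32.

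Ier5, which is induced by growth factors and heat shock, was at 16.9, 17.7 and 15.5 CPM with scramble, at 15.4, 15.2, 14.6 and 15.4 CPM under Mettl3 knockdown and at 15.4, 16.5, 15.5 and 14.7 CPM under Mettl14 knockdown. The Mettl3 KD libraries were all just below scramble and the Mettl14 KD libraries overlapped it. Neither difference passed, at -0.14 ± 0.06 (edgeR adjusted p = 0.0960) and -0.10 ± 0.06 (edgeR adjusted p = 0.257). Without scramble replicate 3, its lowest scramble library, the Mettl3 KD value was -0.18 and passed (edgeR adjusted p = 0.0497).

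**Figure D3:**
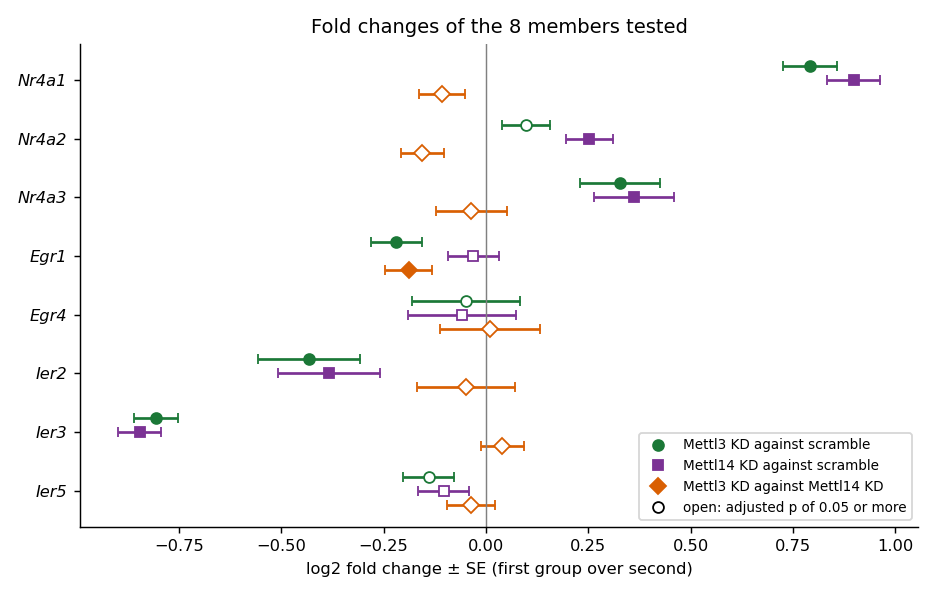
Log2 fold changes with SE bars (x axis) of the 8 tested members (rows) in the 3 comparisons, with filled markers for an adjusted p under 0.05 in edgeR's test. Nr4a1 lies furthest to the right and Ier3 furthest to the left for both knockdowns, and of the direct comparisons of the knockdowns only that of Egr1, at -0.19, is filled.

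Between the knockdowns 1 of the 8 members was called, Egr1, lower in Mettl3 KD, and 0 were called higher. Over all genes tested, the shares called were 3.66% higher and 4.44% lower with Mettl3 KD as the numerator, and libraries did not overlap for 17.6% of genes and for 0 of the 8 members. At an unadjusted p under 0.05 there were 2 members, both lower, and DESeq2 called 0 and limma-voom 2, Egr1 and Nr4a2. Ier3 differed by 0.04 ± 0.05, Nr4a1 by -0.11 ± 0.06 and Nr4a3 by -0.04 ± 0.09, all short of the threshold, which does not show that they were equal.

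Levels were compared between genes only after division by the length of the longest coding transcript, as length-scaled CPM. The order between genes depends on these lengths, and those of other transcripts were not tried. Before the division, the scramble means were 42.4 CPM for Nr4a1 and 35.1 CPM for Ier3. In scramble the order was Ier3 at 65.4 ± 0.971 (SD, n = 3), Nr4a1 at 35.1 ± 4.18, Nr4a2 at 14.3 ± 0.942, Ier5 at 10.8 ± 0.891, Egr1 at 9.78 ± 0.370, Ier2 at 5.91 ± 0.493, Egr4 at 4.85 ± 1.02, Nr4a3 at 2.28 ± 0.245, Egr2 at 0.245 ± 0.0511 and Egr3 at 0.128 ± 0.0558. The ranges of Ier5 and Egr1, of Ier2 and Egr4, and of Egr2 and Egr3 overlapped, and the other neighbours did not. In both knockdowns Nr4a1 led, at 59.7 ± 3.32 (SD, n = 4) in Mettl3 KD and 63.7 ± 3.10 in Mettl14 KD, and Ier3 came next at 36.9 ± 1.95 and 35.6 ± 1.66. The ratio of Nr4a1 to Ier3 on this scale was 0.489 to 0.598 in the scramble libraries, 1.56 to 1.74 in Mettl3 KD and 1.67 to 1.90 in Mettl14 KD. The 3 receptors together summed to 51.7 ± 5.23 in scramble, 77.6 ± 3.62 in Mettl3 KD and 83.3 ± 3.87 in Mettl14 KD, and the share of that sum that was Nr4a1 was 67.8% ± 1.28 in scramble, 76.9% ± 0.941 in Mettl3 KD and 76.5% ± 0.892 in Mettl14 KD.

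**Figure D4:**
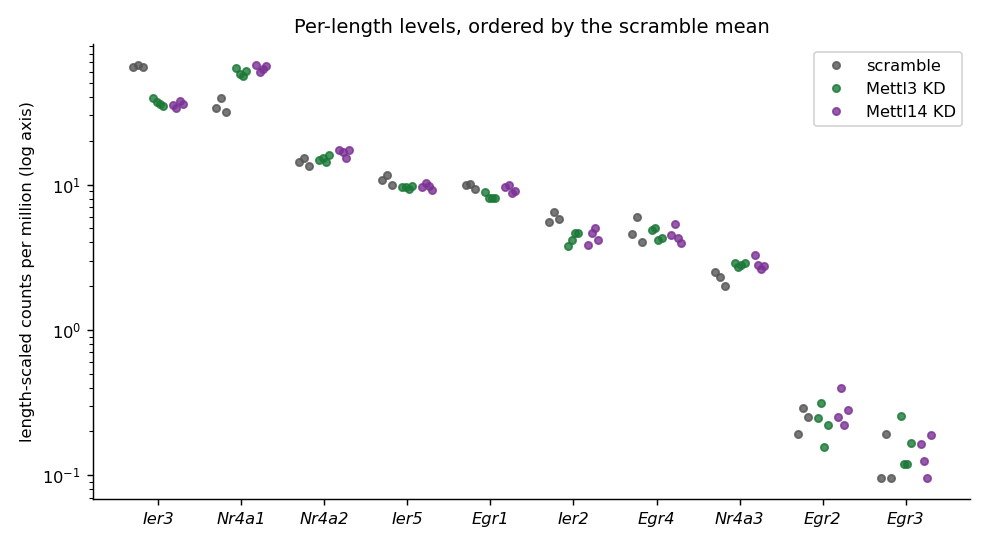
Length-scaled CPM (log axis) of the 10 members in each library, ordered by the scramble mean. Ier3 is above Nr4a1 in the scramble libraries and below it in all knockdown libraries, and Egr2 and Egr3 lie well below the rest.

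The members' transcripts also differed in build. Per GENCODE M21, the longest coding transcript of each Egr and Ier gene had 1 or 2 exons, as did 7.29% of 12022 coding genes with a mean of at least 10 counts, whereas each Nr4a transcript had 8. ATTTA, the core of the AU-rich elements that mark unstable messages, occurred in the 3′ UTR of 8 of the 10, from 2 times in Egr1 and Ier5 to 7 in Egr3, and was not found in Egr4 or Ier2; 69.8% of those coding genes held it. GGACT, a common form of the m6A consensus, occurred 1.57 times per kilobase in Nr4a1, 0.280 in Nr4a2 and 0.350 in Nr4a3, against a median of 1.04 over those coding genes. It occurred 1.12 times per kilobase in Egr1, 0.675 in Egr2, 0.508 in Egr3 and 1.40 in Egr4. Among the Ier genes the values were 3.29 in Ier2, 1.77 in Ier3 and 1.53 in Ier5. Members with and without a called change lay above the median, and Nr4a2 and Nr4a3, which had called changes, lay below it. A link between these counts and the changes was not tested. Whether any of these sites is methylated was not measured in these libraries.

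The genes whose pattern over the 11 libraries was closest to Nr4a1, by the root mean square difference of centred log2 CPM, were Kcnh1, a voltage-gated potassium channel, at 0.0821, Lrrc4, a synaptic adhesion protein, at 0.0946, and Zfhx2, a zinc finger homeobox factor, at 0.142. Nr4a1's own spread on this scale was 0.388. Those closest to Ier3, whose own spread was 0.372, were P4ha1, a collagen prolyl hydroxylase subunit, at 0.0660, Mxi1, a Max-binding repressor, at 0.0729, and the glycolytic enzyme Eno1 at 0.0744.

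Other immediate early genes were lower more often than higher in both knockdowns. Over all genes tested, 15.5% were higher and 15.8% lower in Mettl3 KD, and 10.1% higher and 10.8% lower in Mettl14 KD. Of 33 tested, 18 fell and 3 rose in Mettl3 KD, with medians of -0.34 for the AP-1 factors and -0.21 for the remaining genes, and 10 fell and 3 rose in Mettl14 KD, with medians of -0.33 and -0.08. Without scramble replicate 2, the counts were 15 lower and 3 higher in Mettl3 KD, and 10 lower and 4 higher in Mettl14 KD, and the medians were -0.24 and -0.12 in Mettl3 KD and -0.21 and -0.09 in Mettl14 KD. Among the 6 AP-1 factors, Fosl2 fell by 0.40 ± 0.04 in Mettl3 KD and by 0.19 ± 0.04 in Mettl14 KD, and the direct difference of -0.22 ± 0.03 passed (edgeR adjusted p = 0.000290). Jun fell by 0.41 ± 0.06 and 0.50 ± 0.06. Of the other 27, Ppp1r15a, a phosphatase subunit of the stress response, fell by 0.37 ± 0.04 and 0.36 ± 0.04, while Id3 rose by 0.35 ± 0.04 and 0.38 ± 0.04 and Id1 by 0.29 ± 0.04 and 0.36 ± 0.04, both inhibitors of basic helix-loop-helix factors. Trib1, a pseudokinase, was lower in Mettl3 KD than in Mettl14 KD by 0.22 on the log2 scale (edgeR adjusted p = 0.000374), and Btg2, an antiproliferative gene, was higher by 0.23 (edgeR adjusted p = 0.000983).

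Upstream of the members, the MAP kinase cascade was mixed. For this list and those that follow, the shares over all genes tested are the comparison. They were 15.5% higher and 15.8% lower in Mettl3 KD, and 10.1% higher and 10.8% lower in Mettl14 KD. Of 14 tested genes 5 rose and 4 fell in Mettl3 KD, and 3 rose and 3 fell in Mettl14 KD, with medians of 0.02 and 0.03. Rps6ka1, the kinase RSK1, fell by 0.41 ± 0.06 and 0.37 ± 0.06, and Map2k1, or MEK1, by 0.32 ± 0.05 and 0.40 ± 0.05. Between the knockdowns, Hras was higher in Mettl3 KD by 0.19 ± 0.04 (edgeR adjusted p = 0.00318), and Rps6ka5, the kinase MSK1, was at -0.25 ± 0.06 (edgeR adjusted p = 0.00825).

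In the CREB group 1 of 8 rose and 1 fell with either knockdown, with medians of -0.02 and 0.03. Crem, a CREB relative with activating and repressing isoforms, rose by 0.21 ± 0.05 in Mettl3 KD (edgeR adjusted p = 0.00485) and by 0.30 ± 0.05 in Mettl14 KD (edgeR adjusted p = 0.000434). Crtc2, a CREB coactivator, was at -0.13 ± 0.04 and -0.12 ± 0.04, and those calls ended without scramble replicate 1 or 2 or Mettl3 KD replicate 2, 3 or 4 (for Mettl14 KD also without any of its own replicates), with adjusted p up to 0.0637 and 0.131 by edgeR. Crtc3 was at -0.18 ± 0.05 between the knockdowns, a call that ended on leaving out replicate 3 or 4 of Mettl3 KD, or 2 or 4 of Mettl14 KD.

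Among SRF and its cofactors 1 of 6 fell in Mettl3 KD, Elk3, a ternary complex factor, at -0.44 ± 0.08. In Mettl14 KD edgeR called 0 of the 6, with 2 at an unadjusted p under 0.05, and DESeq2 called 0 and limma-voom 1. The medians were -0.00374 and -0.05. Without scramble replicate 2 the counts were 2 and 1, all lower, while the medians turned to 0.03 in both. Elk3 was also lower in Mettl3 KD than in Mettl14 KD, at -0.31 ± 0.08, a call lost on leaving out replicate 2 or 3 of Mettl3 KD, or 1 or 4 of Mettl14 KD.

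Of 12 feedback inhibitors of MAP kinases, 1 rose and 4 fell in Mettl3 KD, and 2 rose and 4 fell in Mettl14 KD, with medians of -0.09 and 0.000789. Spred2, which restrains Ras signalling, fell by 0.31 ± 0.04 in Mettl3 KD and by 0.17 ± 0.04 in Mettl14 KD, and the direct difference was -0.15 ± 0.03 (edgeR adjusted p = 0.00842). Dusp8, a stress kinase phosphatase, fell by 0.40 ± 0.06 and 0.42 ± 0.06. Dusp1, itself an immediate early phosphatase, rose by 0.21 ± 0.04 in Mettl3 KD and by 0.34 ± 0.04 in Mettl14 KD, and Spry4, a Sprouty inhibitor, was lower in Mettl3 KD than in Mettl14 KD, at -0.45 ± 0.08.

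Of 4 tested partners of the Nr4a and Egr factors, with medians of -0.03 and -0.01, 1 fell in each knockdown, Nab2, the corepressor that binds Egr proteins and is induced by them. Nab2 was at 68.9 CPM with scramble, at 50.1 CPM under Mettl3 knockdown and at 56.6 CPM under Mettl14 knockdown, log2 fold changes of -0.46 ± 0.05 (edgeR adjusted p = 4.61e-06) and -0.29 ± 0.05 (edgeR adjusted p = 0.000921). The direct difference of -0.17 ± 0.05 passed (edgeR adjusted p = 0.0453), and that call ended when any of the 8 knockdown libraries was left out. Of 8 proteins that bind AU-rich elements, edgeR, DESeq2 and limma-voom called 0 in either knockdown against scramble, with 1 and 2 at an unadjusted p under 0.05 by edgeR and medians of -0.03 and 0.01.

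**Figure D5:**
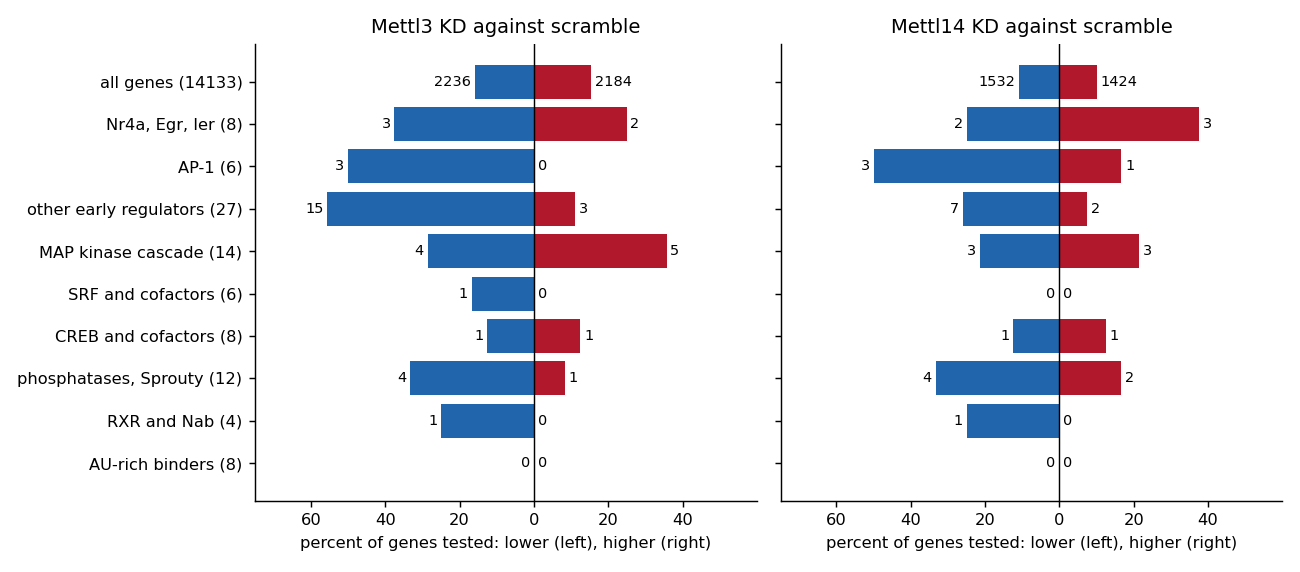
Percent of tested genes called lower (left, blue) and higher (right, red) against scramble by edgeR's test at an adjusted p of 0.05, by gene list, with the number called at each bar and the number tested in brackets. Bars for all 14133 genes are at the top, and the other early regulators have 15 genes lower and 3 higher in Mettl3 KD, and 7 lower and 2 higher in Mettl14 KD.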

How the data were processed

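Messenger RNA of 11 alphaTC1-6 libraries was analysed from 1 table. The authors deposited estimated counts per Ensembl gene, made with kallisto per the submitters' processing notes. The version, the build, the annotation and the summing to genes were not given in the sources used here. Of the values, 11.6% were not whole, and they were rounded. Symbols matched 48651 of 53947 rows. The filterByExpr function (minimum count 10) kept 14133 genes with 99.9% of counts. Scaling factors were edgeR's trimmed means (TMM). All 11 entered 1 fit of edgeR 4.0.16 (R 4.3.3), a robust quasi-likelihood F-test with a mean per group, 8 residual degrees of freedom and Benjamini-Hochberg adjustment over all genes tested at 0.05. SE is the absolute log2 fold change over the square root of F, an approximation. The common biological coefficient of variation was 4.38%. The fits were also run on simulated data that gave every gene the same biological spread and held no outlying library. That setting differs from the scramble library that stood apart, so it gives no assurance about that library's effect.

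The members and the lists (135 genes in 14 lists) were chosen with earlier results of these data known. All members are named, with Mettl3 and Mettl14, and from each list the 2 called genes with the smallest adjusted p in each comparison. For Nr4a1 and Ier3 the 3 genes nearest in pattern are named, among 11397 with a mean of at least 50 counts (log2 CPM, prior count 2); the same result for Egr1 is not reported here. Of the list genes, 1 had no row with its symbol. Alternatives were other scalings, other filters, DESeq2 1.42.0, limma 3.58.1 voom with quality weights, fits of 2 groups, a replicate block and leaving out each library. No replicate pair of a group was close enough to be sampling noise, with chi-square per degree of freedom of 13.0 and 14.5 for scramble replicate 2 against the other scramble libraries and 2.07 to 3.78 for all other pairs.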

Additional observations from a re-analysis of the deposited data

Results flagged for a closer look

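Egr1 stood out for 2 reasons. In Mettl3 KD replicate 1 it was at 19.3 CPM, far from the other 3 libraries of its group, which lay between 17.3 and 17.5 CPM, so that the gap took up 0.902 of the group's range, above Dixon's 95% limit for 4 samples. It was the 1 such case in 20 groups of 4 tested, and chance gives about 1 in 20. Its effect also differed between the knockdowns by the direct test, with a log2 difference of -0.189 for Mettl3 KD minus Mettl14 KD.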

How the results depend on the processing

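Of 456 alternative values of member fold changes, 417 kept their direction and their side of the threshold, 20 lost a call, 5 gained one and 14 turned sign, each of the last at an adjusted p above the threshold both before and after. Nr4a1 and Ier3 in both knockdowns, Nr4a2 in Mettl14 KD, and Egr1 and Ier2 in Mettl3 KD were called under all 19 alternatives. Sign turned for Egr4 against scramble in Mettl3 KD with limma-voom (0.0557) and in Mettl14 KD with limma-voom (0.0331); leaving out 1 library moved Egr4 from -0.155 to 0.103 and from -0.165 to 0.0929, and between the knockdowns from -0.0466 to 0.10. The same ranges were -0.0642 to 0.00814 for Egr1 in Mettl14 KD, and between the knockdowns -0.0816 to 0.0371 for Nr4a3, -0.108 to 0.0156 for Ier2 and -0.00100 to 0.0682 for Ier3. Members called lower in Mettl14 KD went from 2 to 1 with no filter, with DESeq2 and in the fit of 2 groups, and ranged from 1 to 2 when a library was left out. Members called higher in Mettl3 KD ranged from 1, without scramble replicate 3, to 2. Between the knockdowns the 1 member called lower became 0 with DESeq2, with its size factors in edgeR, with library totals alone and with the replicate block, 2 with limma-voom and with 2 groups, and 0 to 2 without a library; members without overlap ranged from 0 to 2. All genes called between the knockdowns went from 1145 to 2038 with limma-voom, to 2187 with 2 groups, and from 713 to 2125 without a library, highest without scramble replicate 2 and at most 762 on leaving out replicate 1 or 4 of Mettl3 KD, or 1, 3 or 4 of Mettl14 KD. Other immediate early genes called between the knockdowns went from 1 higher and 5 lower to 3 and 9 without scramble replicate 2, an alternative chosen after seeing the data. The cause was not tested. Replicate numbers in the titles did not pair the libraries: correlations of same-numbered libraries ran from -0.159 to 0.108, and 2 of 11 libraries correlated best with their own number. The replicate block left 3784, 2335 and 839 genes called and changed 1 member call, that of Egr1 between the knockdowns (adjusted p = 0.0512 by edgeR). Depth limits Egr2 and Egr3, at 12 counts or fewer a library.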
